A study of Mus musculus with 6 samples.

Results

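Mrgprd Lpar3 non-peptidergic nociceptors of the mouse dorsal root ganglion were taken as the cells with 3 or more unique molecular identifiers (UMIs) of Mrgprd and Lpar3 together, more of these than of Mrgpra3, and fewer than 5 UMIs of Sst and Nppb together. The rule found 1680 of the 21685 cells in the table (7.75%). Of these, 37 were called doublets and 0 failed the filters on cells, so 1643 of 21024 kept cells were described. The members were chosen by the measured counts of Mrgprd, Lpar3, Mrgpra3, Sst and Nppb, and the levels of these genes are given as a description.

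Non-peptidergic nociceptors are small unmyelinated sensory neurons of the skin that bind the lectin IB4 and respond to painful mechanical and chemical stimuli. Mrgprd encodes a Mas-related G protein-coupled receptor for beta-alanine, and Lpar3 a receptor for lysophosphatidic acid. The class depends in development on the transcription factor Runx1 and on glial-family ligand signalling through Ret with the co-receptor Gfra2, and it uses the ATP-gated channel subunit P2rx3.

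Ttpa-/- mice kept on a diet deficient in vitamin E (mouse 654, female, and mouse 657, male) and Ttpa-/- mice supplemented with vitamin E (mouse 670, male, and mouse 671, female) were 6 months old. Wild type (Ttpa+/+) mice on a basal diet (mouse 698, female, and mouse 699, male) were 5 months old. The product of Ttpa loads alpha-tocopherol, the main form of vitamin E, for release from the liver. Genotype, age and basal diet go together in this design and cannot be told apart, and the strain background and the deleted part of Ttpa are not given in the sources used here. All 6 libraries are droplet 3' libraries of cells labelled as dorsal root ganglion neurons, with 1 library per mouse.

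Ttpa (mm10, chromosome 4, 20007938 to 20030785) gave 1 UMI in the Mrgprd Lpar3 cells of deficient mouse 657 and 0 in those of each of the other mice. Wild type cells were at 0 as well, with upper 95% Poisson limits of 1.65 in mouse 698 and 2.06 in mouse 699 (CPM, counts scaled to 1000000), so the gene checks no label here. The libraries held between 12538785 and 19383933 UMIs, and 261 of 21424 barcodes occurred in more than 1 library, 40 of them being barcodes of Mrgprd Lpar3 cells by the rule. The summed counts of the Mrgprd Lpar3 cells were 2341742 and 3241973 UMIs in deficient mice, 1737721 and 2339957 in supplemented mice, and 2234078 and 1794141 in wild type mice. Their median UMIs per cell were 6169 and 11266 in deficient mice, 5854 and 8109 in supplemented mice, and 9739.5 and 9989 in wild type mice, so mice 654 and 670 were the shallowest.

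Promoter windows of 300 bases (250 before to 50 after the annotated start, RefSeq, GRCm38.p6) are shown for both genes that chose the cells and for a pair of genes from the 20 with the highest ratio in them that hold the core motif of the RUNX factors. The motif was searched as TGTGGT or its reverse complement ACCACA, which covers both strands with no overlap between them, and matches are in capitals.
Mrgprd (chr7:145314585-145314884, plus strand): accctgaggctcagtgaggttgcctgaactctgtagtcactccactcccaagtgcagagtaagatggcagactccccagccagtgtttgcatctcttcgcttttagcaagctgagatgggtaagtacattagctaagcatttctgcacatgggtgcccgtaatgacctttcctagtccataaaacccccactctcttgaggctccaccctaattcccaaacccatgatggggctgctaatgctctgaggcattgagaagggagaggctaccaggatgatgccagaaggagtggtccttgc
Lpar3 (chr3:146220711-146221010, plus strand): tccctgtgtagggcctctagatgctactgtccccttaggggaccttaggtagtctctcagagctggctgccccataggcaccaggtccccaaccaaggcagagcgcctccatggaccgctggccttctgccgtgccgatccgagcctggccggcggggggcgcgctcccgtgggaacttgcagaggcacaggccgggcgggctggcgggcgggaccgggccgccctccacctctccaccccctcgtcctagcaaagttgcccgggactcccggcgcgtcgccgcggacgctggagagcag
Gm765 (chr6:98342705-98343004, minus strand): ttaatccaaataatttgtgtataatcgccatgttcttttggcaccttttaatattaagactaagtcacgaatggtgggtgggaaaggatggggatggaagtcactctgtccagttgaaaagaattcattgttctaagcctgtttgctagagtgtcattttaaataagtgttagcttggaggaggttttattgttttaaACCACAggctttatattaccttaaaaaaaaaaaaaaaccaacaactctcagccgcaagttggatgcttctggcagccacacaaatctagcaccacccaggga
Serpina11 (chr12:103989908-103990207, minus strand): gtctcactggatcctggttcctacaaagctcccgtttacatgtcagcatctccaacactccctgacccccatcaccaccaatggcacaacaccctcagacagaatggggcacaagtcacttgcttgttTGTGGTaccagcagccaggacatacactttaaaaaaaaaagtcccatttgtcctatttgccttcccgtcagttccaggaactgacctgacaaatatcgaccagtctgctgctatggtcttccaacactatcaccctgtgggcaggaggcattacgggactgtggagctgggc
The windows of Mrgprd and Lpar3 held no match. Gm765 held 1 match starting at base 199 of its window and Serpina11 held 1 starting at base 129. Among the 20 genes with the highest ratio, 11 had a window in the table and 3 of these held the motif, against 18.9% of all 27025 genes with a window. A match is a run of letters and says nothing of binding. Sequences of Gfra2 and P2rx3 are not shown.

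Lpar3 (mm10, chromosome 3, 146220963 to 146286186) was found in 97.1% of the Mrgprd Lpar3 cells and Mrgprd (chromosome 7, 145314835 to 145324086) in 75.8%, with no test because the rule used both. Of the 1643 cells, 1197 had UMIs of both genes, 398 of Lpar3 alone and 48 of Mrgprd alone. The sum of both genes had a median of 4 and a highest value of 21 UMIs. Per cell, Mrgprd averaged 1.38 and 1.53 UMIs in deficient mice, 1.46 and 1.58 in supplemented mice, and 1.22 and 1.51 in wild type mice. Lpar3 averaged 3.10 and 4.90 UMIs per cell in deficient mice, 2.98 and 3.44 in supplemented mice, and 4.33 and 3.72 in wild type mice. Only 10 of the cells had a UMI of Mrgpra3, the receptor that marks a class of itch neurons, and 10 had one of Sst or Nppb, the peptides of another itch class.

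The label was checked against 4 class marks that the rule did not use. In CPM of the summed counts, Gfra2 had 330 and 282 in deficient mice, 298 and 313 in supplemented mice, and 299.5 and 269 in wild type mice in the Mrgprd Lpar3 cells. In the other cells it had 153 and 121, 163 and 124, and 122 and 99.9 CPM in the same groups, lower in each mouse. "Other cells" are the 19365 kept cells outside the rule with 5 or more UMIs of pan-neuronal genes, a criterion that nearly every cell met, so they include some with glial transcripts. They also include cells with a sum of 2 or 1 UMIs of Mrgprd and Lpar3, which had 295 and 262 CPM of Gfra2. Plxnc1, a semaphorin receptor, averaged 267 ± 19.1 CPM in the Mrgprd Lpar3 cells and 119 CPM in the other cells (SD, n = 6 mice), but was as high in the Mrgpra3 itch neurons, at 268 CPM. Prkcq, a protein kinase C, averaged 64.5 ± 7.40 CPM against 6.61 CPM, and P2rx3 averaged 76.2 ± 7.07 CPM against 12.9 CPM. These 4 genes were higher in the Mrgprd Lpar3 cells in each of the 6 mice, by log2 ratios of 1.13 to 2.58 (5 CPM added to both).

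Detection was also compared at equal depth. With each cell thinned to 2000 UMIs, which leaves 1629 of the Mrgprd Lpar3 cells, Gfra2 was found in 47.0% of them, against 1.18% of 509 Mrgpra3 itch neurons and 0.271% of 1107 Sst Nppb itch neurons. Prkcq was found in 12.4% of the thinned Mrgprd Lpar3 cells and 0.181% of the Sst Nppb itch neurons. Median depths before thinning were 7812 UMIs in the Mrgprd Lpar3 cells, 7144 in the Mrgpra3 itch neurons and 3976 in the Sst Nppb itch neurons. P2rx3 was found in 14.3% of the Mrgprd Lpar3 cells, 3.54% of the Mrgpra3 itch neurons and 5.33% of the Sst Nppb itch neurons.

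Markers of several other sensory classes, but not of all, were mostly lower in the Mrgprd Lpar3 cells than in the other cells. Th, the enzyme that marks C-fibre low-threshold mechanoreceptors, averaged 1.06 CPM in them and 104 CPM in the other cells. Ntrk2, a receptor of myelinated mechanoreceptors, averaged 0.93 CPM in the Mrgprd Lpar3 cells and 79.5 CPM in the other cells. Nefh, the heavy neurofilament, averaged 76.2 CPM against 499 CPM. The markers of large myelinated neurons were at least 2-fold lower for 9 of 9 genes, and those of peptidergic nociceptors for 8 of 8. This held for 4 of 4 markers of Th C-fibre mechanoreceptors and 7 of 8 of Sst Nppb itch neurons. It held for only 2 of 5 markers of Mrgpra3 itch neurons and 0 of 5 of Trpm8 cold neurons, with 1 gene higher in each list. The rule used Mrgpra3, Sst and Nppb. Of 9853 genes at 5 CPM or more in either set, 1233 were at least 2-fold lower.

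The 485 cells with a sum of exactly 3 had 329 CPM of Gfra2, 58.2 of Prkcq, 69.8 of P2rx3 and 1.57 of Th. The 538 kept cells just outside, with a sum of exactly 2, had 295 CPM of Gfra2, 53.1 of Prkcq, 56.9 of P2rx3 and 4.86 of Th. The 748 cells with a sum of 1 had 262 CPM of Gfra2 but 61.1 of Th and 357 of Nefh. Median depth was 6297 UMIs in the cells with a sum of 3, 5114.5 in those with 2 and 3967 in those with 1.

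The share of the Mrgprd Lpar3 cells among kept cells with 5 or more pan-neuronal UMIs was 9.32% (8.43 to 10.3) and 10.3% (9.18 to 11.5) in deficient mice. It was 7.56% (6.75 to 8.43) and 7.63% (6.79 to 8.53) in supplemented mice, and 6.91% (6.07 to 7.82) and 5.42% (4.68 to 6.24) in wild type mice, with exact 95% binomial intervals that cover counting error only. Deficient mice were highest and wild type mice lowest, and no groups overlapped. The mean was 9.80% ± 0.682 in deficient mice and 6.16% ± 1.05 in wild type mice (SD, n = 2 each), a difference of 3.64 points (exact two-sided permutation p = 0.333, the smallest that 2 against 2 mice can give). Supplemented mice averaged 7.59% ± 0.0468, 1.43 points above wild type mice, and deficient mice were 2.21 points above supplemented mice, each with exact permutation p = 0.333. Both Ttpa-/- diets averaged 8.70% ± 1.33 (n = 4) against 6.16% ± 1.05 in wild type mice (n = 2), with exact permutation p = 0.133, where 0.0667 is the smallest possible.

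The order of the shares moved with the threshold. At 5 or more UMIs the share was 3.72% and 6.92% in deficient mice, 2.60% and 3.65% in supplemented mice, and 4.26% and 2.91% in wild type mice, and the groups overlapped. With cells thinned to 2000 UMIs it was 2.01% and 1.47% in deficient mice, 2.79% and 1.24% in supplemented mice, and 1.11% and 0.620% in wild type mice. At 2 or more UMIs it was 13.5% and 11.8%, 11.9% and 9.72%, and 8.38% and 6.499% in the same groups. Wild type mice were below all Ttpa-/- mice in 3 of these 4 versions, and the part that depth plays in the shares was not tested.

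**Figure D1:**
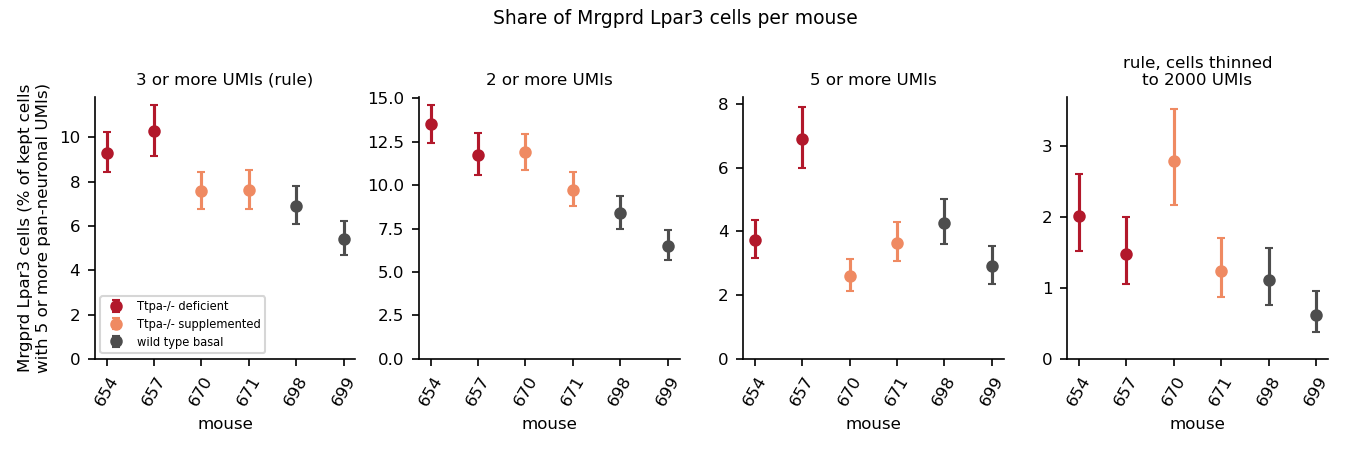
Share of Mrgprd Lpar3 cells per mouse (percent of kept cells with 5 or more pan-neuronal UMIs) under the rule, at 2 or more and 5 or more UMIs, and with cells thinned to 2000 UMIs; bars are exact 95% binomial intervals. Under the rule deficient mice lie at 9.32 and 10.3%, supplemented mice at 7.56 and 7.63%, and wild type mice at 6.91 and 5.42%, and at 5 or more UMIs the groups overlap.

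Beyond the genes of the rule, the highest ratios in the Mrgprd Lpar3 cells belonged to Otoa, which encodes otoancorin of the inner ear (87.3 ± 9.60 CPM, against 8.45 CPM in the other cells, SD, n = 6 mice), and to the homeobox gene Barx2 (74.3 ± 12.9 CPM, against 6.75 CPM). Then came Ms4a3, Serping1, Ly86 and Prkcq. Serping1, the C1 complement inhibitor, averaged 223 CPM and 30.7 CPM, and Ly86, a partner of the Toll-like receptor relative CD180, averaged 629 CPM and 99.8 CPM. Ly86 was also present in the Mrgpra3 itch neurons at 370 CPM, but Serping1 was at 31.0 CPM and Barx2 at 1.59 CPM there. Agtr1a, an angiotensin receptor, averaged 51.7 CPM in the Mrgprd Lpar3 cells and 5.92 CPM in the other cells, and Grik1, a kainate receptor subunit, 64.1 CPM and 10.8 CPM. Others among the 20 with the highest ratio were 9130204L05Rik, Gm765, Serpina11, Ctxn3, P2rx3, Nnat, Txn1, Klhl5 and Rspo2, and each of the 20 was higher in all 6 mice. These values have no test, since the cells were chosen by their counts.

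At the other end stood genes nearly absent from the Mrgprd Lpar3 cells. Ngfr, the low-affinity neurotrophin receptor, averaged 3.63 CPM in them and 353 CPM in the other cells. Thy1 averaged 2.06 CPM against 300 CPM, Nrp1, a semaphorin and VEGF co-receptor, 1.58 CPM against 212 CPM, and Pcp4, a calmodulin regulator, 5.67 CPM against 578 CPM. Fxyd7, Tagln3, Hpcal1, Fbxo2, Hopx and Camk2n1 completed the 10 lowest. Of 9853 genes at 5 CPM or more in either set, 181 were at least 2-fold higher and 1233 at least 2-fold lower, with a median log2 ratio of -0.22.

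**Figure D2:**
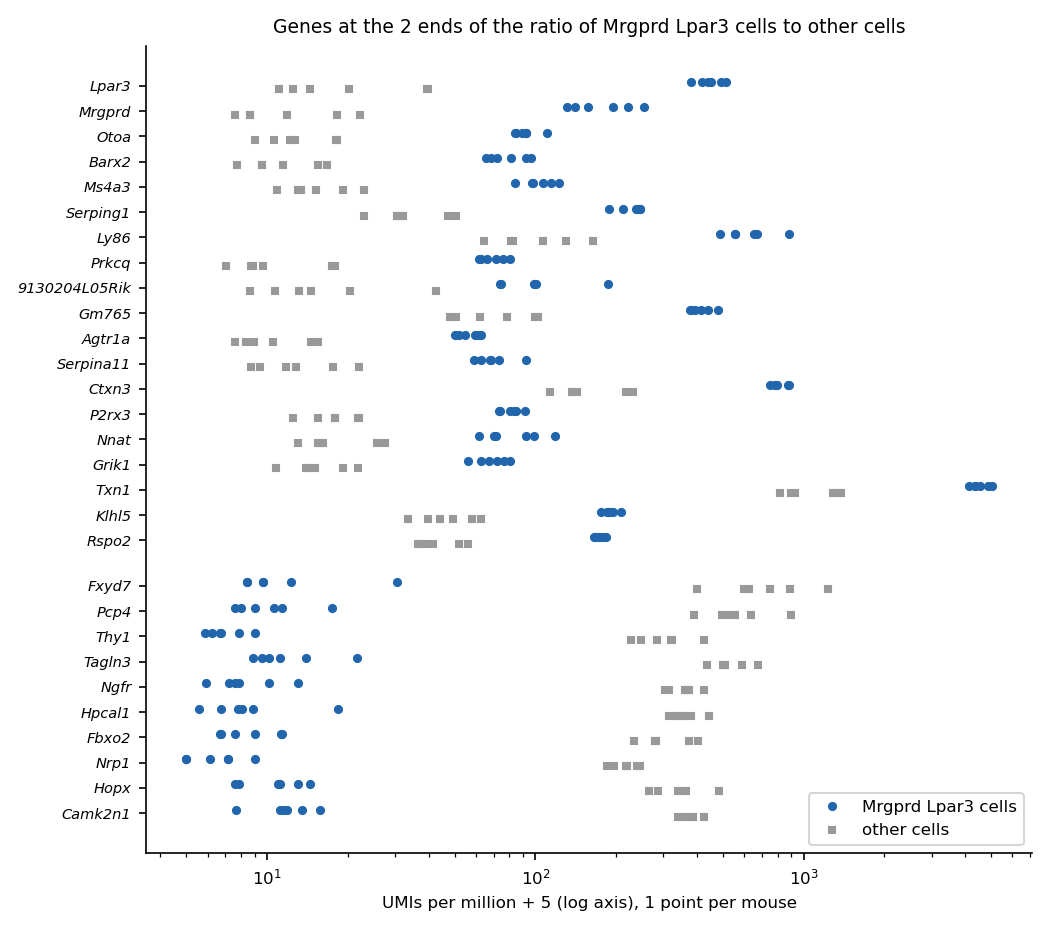
Levels (CPM plus 5, log axis) of genes among the 20 with the highest ratio and of the 10 with the lowest ratio in Mrgprd Lpar3 cells (blue circles) and other cells (grey squares), with 1 point per mouse. Otoa averages 87.3 CPM in the Mrgprd Lpar3 cells and 8.45 in the other cells, and Ngfr 3.63 and 353.

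Each family of ion channels held more genes at least 2-fold lower than at least 2-fold higher in the Mrgprd Lpar3 cells. The same held over the 9853 genes at 5 CPM or more in either set, with 1233 at least 2-fold lower and 181 at least 2-fold higher. Among 11 sodium channel genes, Scn11a, the persistent Nav1.9 channel, averaged 225 ± 28.8 CPM in them and 104 CPM in the other cells, and Scn10a, Nav1.8, averaged 199 ± 15.5 CPM and 122 CPM (SD, n = 6 mice). Of the 11 genes, Scn11a was at least 2-fold higher and 7 were at least 2-fold lower. Scn9a, Nav1.7, was close between the sets, with 255 CPM and 274 CPM. Of 26 TRP, P2X and mechanical channel genes, 2 were at least 2-fold higher, P2rx3 among them, and 6 at least 2-fold lower. Trpa1, the irritant channel, averaged 56.6 CPM in the Mrgprd Lpar3 cells and 29.4 CPM in the other cells, and Trpv1, the capsaicin channel, 5.83 CPM against 58.7 CPM. Piezo2, the touch channel, averaged 275 CPM in the Mrgprd Lpar3 cells, 370 CPM in the other cells and 93.8 CPM in the Mrgpra3 itch neurons.

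Of 48 potassium and HCN channel genes, 7 were at least 2-fold higher and 18 at least 2-fold lower in the Mrgprd Lpar3 cells. Over the 9853 genes these counts were 181 and 1233. Kcnip4, a Kv4 accessory protein, averaged 328 CPM and 125 CPM, Kcnip2 115 CPM and 40.4 CPM, and Kcng2, a modifier subunit, 86.2 CPM and 26.2 CPM. Kcnab1, a beta subunit, averaged 182 CPM in the Mrgprd Lpar3 cells, 73.8 CPM in the other cells, 1.98 CPM in the Mrgpra3 itch neurons and 2.27 CPM in the Sst Nppb itch neurons. Ano3, of the anoctamin family, was the 1 gene of 23 calcium and chloride channels at least 2-fold higher, at 426 CPM against 186 CPM, and 5 were at least 2-fold lower. Among 50 further G protein-coupled receptors 3 were at least 2-fold higher, Agtr1a, the prostaglandin D2 receptor Ptgdr (63.7 CPM against 19.3 CPM) and Mrgpra2b (44.0 CPM against 19.3 CPM), and 17 at least 2-fold lower. Near-identical Mrgpr copies can share reads, so the Mrgpra2b value is uncertain.

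Peptide genes were present in the Mrgprd Lpar3 cells. Calca, the alpha form of the peptide CGRP, had 417 and 692 CPM in deficient mice, 618 and 435 in supplemented mice, and 569 and 654 in wild type mice. It was lower there than in the other cells (2025 CPM on average) and in the Mrgpra3 itch neurons (6849 CPM) but higher than in the Sst Nppb itch neurons (51.8 CPM). At 2000 UMIs it was found in 54.2% of the Mrgprd Lpar3 cells and 7.59% of the Sst Nppb itch neurons. Calcb, the beta form, averaged 1451 ± 179 CPM in the Mrgprd Lpar3 cells and 510 CPM in the other cells, and Nmb, neuromedin B, 815 ± 49.8 CPM and 280 CPM. Tac1, the substance P precursor, averaged 296 CPM and 677 CPM. At 2000 UMIs Tac1 was found in 39.6% of the Mrgprd Lpar3 cells, 16.7% of the Mrgpra3 itch neurons and 27.6% of the Sst Nppb itch neurons. Sst and Nppb were used by the rule, and Adcyap1, the precursor of PACAP, averaged 1.79 CPM against 137 CPM.

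Receptors and transcription factors of the class were less selective. Ret averaged 391 CPM in the Mrgprd Lpar3 cells and 313 CPM in the other cells. Runx1 averaged 328 ± 18.0 CPM and 222 CPM (SD, n = 6 mice), with 67.3 CPM in the Mrgpra3 itch neurons and 294 CPM in the Sst Nppb itch neurons. Of 34 transcription factor genes 0 were at least 2-fold higher and 13 at least 2-fold lower, beside 181 and 1233 of the 9853 genes. Ntrk3, the neurotrophin-3 receptor, averaged 39.3 CPM against 241 CPM, and Gap43, a growth cone protein, 48.3 CPM against 747 CPM.

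Txn1, cytosolic thioredoxin, stood out in the antioxidant list. It had 4339 and 4334 CPM in deficient mice, 4135 and 4540 in supplemented mice, and 5017 and 4873 in wild type mice, against a mean of 1105 CPM in the other cells, 631 CPM in the Mrgpra3 itch neurons and 648 CPM in the Sst Nppb itch neurons. Every mouse was above all means of the other cell sets. Wild type mice were highest, but Ttpa-/- and wild type mice did not overlap for 12.7% of the genes tested between groups, in either direction. By edgeR's test, given below, 0 of the 34 antioxidant genes tested were called in both Ttpa-/- diets against wild type. Mgst3, a microsomal glutathione transferase, averaged 516 CPM in the Mrgprd Lpar3 cells, 269 CPM in the other cells, 30.3 CPM in the Mrgpra3 itch neurons and 7.27 CPM in the Sst Nppb itch neurons. Gpx4, which reduces lipid hydroperoxides, averaged 1269 ± 47.3 CPM against 991 CPM. Of the 47 genes 3 were at least 2-fold higher and 3 at least 2-fold lower, beside 181 and 1233 of the 9853 genes. Of the 20 genes of vitamin E and lipid transport, 0 were at least 2-fold higher and 4 at least 2-fold lower. The mitochondrially encoded genes were lower in the Mrgprd Lpar3 cells for 13 of 13, with a median log2 ratio of -0.82.

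**Figure D3:**
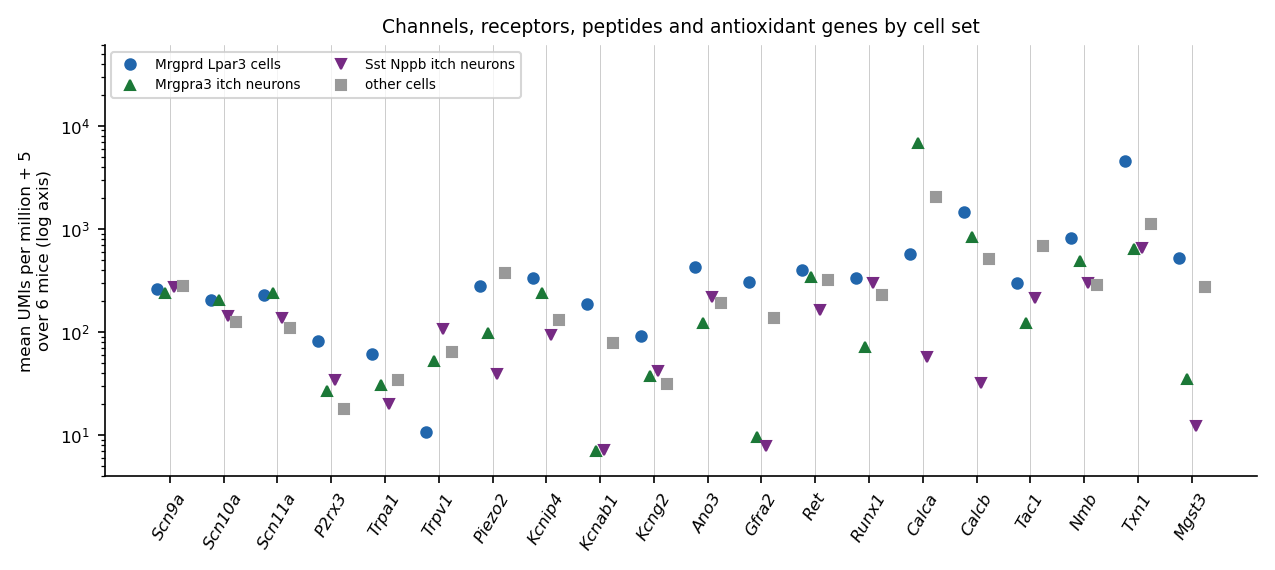
Mean level over 6 mice (CPM plus 5, log axis) of channel, receptor, peptide and antioxidant genes in Mrgprd Lpar3 cells, Mrgpra3 itch neurons, Sst Nppb itch neurons and other cells. Kcnab1 and Gfra2 are low in both itch sets, Trpv1 averages 5.83 CPM in the Mrgprd Lpar3 cells, and Txn1 4540 CPM.

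The Mrgprd Lpar3 cells fell into 3 subsets when clustered without the genes that differed between groups, and each subset held cells of every mouse. Subset 1 had 980 cells, subset 2 had 567 and subset 3 had 96. Leading genes describe the subsets and are no test, as the cells were clustered by them. Subset 1 had more Ctsl, a lysosomal protease (2011 CPM, against 836 in subset 2 and 1243 in subset 3), and Ckb, brain creatine kinase (331, 146 and 176 CPM). Subset 2 had more Kcnc4, a Kv3 channel (119 CPM, against 66.2 in subset 1 and 17.7 in subset 3), and Il6st, the shared receptor of the interleukin 6 family (299, 183 and 104 CPM). Median depth was 9232 UMIs per cell in subset 1, 6027 in subset 2 and 7856 in subset 3, and median mitochondrial share 1.72%, 2.61% and 2.06%, so subsets 1 and 2 also differ in depth and mitochondrial share.

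Subset 3 was 9 and 19 cells in deficient mice, 22 and 21 in supplemented mice, and 12 and 13 in wild type mice. Its leading gene was Tagln2, an actin-binding protein, at 913 CPM, against 44.6 in subset 1 and 58.2 in subset 2. Id1 (105 CPM) and Id3 (210 CPM), inhibitors of helix-loop-helix transcription factors, Lgals3 (193 CPM), which encodes galectin 3, Ptger1 (36.7 CPM), a prostaglandin E2 receptor, and the potassium channel Kcnk18 (39.3 CPM) were also high in it. Nnat was at 8.87 CPM in subset 3, against 85.4 in subset 1 and 78.1 in subset 2, and Ntrk3 at 6.33, against 35.4 and 57.3 CPM. Mrgprd averaged 2.36 UMIs per cell in subset 3, against 1.42 in subset 1 and 1.34 in subset 2, and Lpar3 averaged 1.72, 4.26 and 3.03 UMIs. The 48 cells with Mrgprd alone had 836 CPM of Tagln2, against 80.9 in the cells with both genes.

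Subset 2 made up 34.5% and 32.1% of the Mrgprd Lpar3 cells in deficient mice, 39.4% and 41.8% in supplemented mice, and 23.9% and 32.6% in wild type mice, and subset 3 made up 2.45% and 6.62%, 7.41% and 7.50%, and 5.22% and 7.18%. No test was made on these shares. Among 1675 genes with a mean of 0.2 UMIs or more per cell at 2000 UMIs, the median ratio of variance to mean (Fano factor) across the cells of a mouse was 1.03. Actb, beta-actin, was first at 20.3, followed by Malat1, a nuclear noncoding RNA, at 16.6, while Tagln2 was at 2.38 and Ly86 at 2.17.

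**Figure D4:**
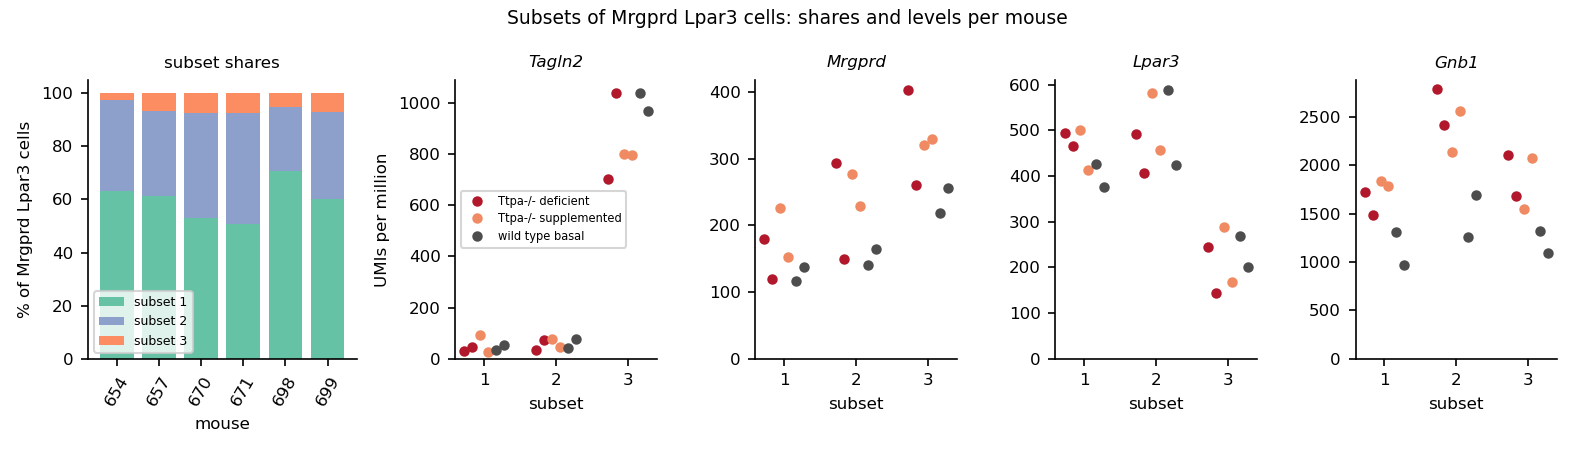
Subsets of the Mrgprd Lpar3 cells: stacked shares per mouse (left) and levels in CPM of Tagln2, Mrgprd, Lpar3 and Gnb1, with 1 point per mouse in each subset. Tagln2 is at 913 CPM in subset 3 with the cells of all mice summed. Gnb1 is higher in all Ttpa-/- mice than in wild type mice in subsets 1 and 2.

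To ask which genes differ between the mice, UMIs of the Mrgprd Lpar3 cells were summed per mouse and 9164 genes were tested with edgeR's quasi-likelihood test. In deficient against wild type mice, 2 genes rose (0.0218% of those tested) and 0 fell (0.00%), at a Benjamini-Hochberg adjusted p under 0.05. Of all genes tested, 346 (3.78%) had an unadjusted p under 0.05, DESeq2 called 2 higher and 1 lower, and limma-voom 2 higher and 0 lower. Wdfy1, an endosomal FYVE-domain protein (mm10, chromosome 1, 79702262 to 79776143), had 27.3 and 33.3 CPM in deficient mice and 9.0 and 8.9 in wild type mice. The groups did not overlap, as for 31.0% of the genes tested, and its log2 fold change was 1.74 ± 0.26 (SE, edgeR adjusted p = 0.00136), which held in each of 18 alternatives run. Supplemented mice lay between, at 21.3 and 22.6 CPM. Hbb-bs, a beta-globin of red cells, was the other gene called, at 164 and 33.0 CPM in deficient mice and 2.2 and 7.8 in wild type mice (log2 fold change 4.28, edgeR adjusted p = 0.00136). In mouse 654, 183 of its 385 UMIs lay in 1 cell, and in mouse 657 105 of 107; without the highest cell of each mouse the edgeR adjusted p was 0.435, without mouse 654 it was 0.0621, and in cells with UMIs of both Mrgprd and Lpar3 it was 0.999. DESeq2 and limma-voom did not call Hbb-bs (adjusted p of 1 and 0.298).

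Genes that missed the threshold in deficient against wild type mice came next in p. Gnb1, a G protein beta subunit, had a log2 fold change of 0.59 (edgeR adjusted p = 0.0522), and it passed in 13 of 18 alternatives, DESeq2 (adjusted p = 0.038) and limma-voom (0.04) among them, but not without mouse 654 (edgeR adjusted p = 1). The alpha-globin Hba-a1 had 3.85 (edgeR adjusted p = 0.0679), with 98 of its 204 UMIs in mouse 654 in 1 cell and 27 of 27 in mouse 657. Cpne3, a calcium-dependent phospholipid-binding protein, had -0.57, Apoe -0.70 and Asph 0.66, each with an edgeR adjusted p of 0.0679.

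In supplemented against wild type mice, 14 genes were called (0.153% of those tested) by edgeR's test, of which 12 rose (0.131%) and 2 fell (0.0218%). Actb (chromosome 5, 142903115 to 142906754) had 6632 and 7446 CPM in supplemented mice and 4437 and 3912 in wild type mice. The groups did not overlap, as for 34.4% of the genes tested, and the log2 fold change was 0.74 ± 0.10 (SE, edgeR adjusted p = 0.000582). Gnb1 (chromosome 4, 155491361 to 155559269) had 1913 and 2055 CPM in supplemented mice and 1306 and 1152 in wild type mice, a log2 fold change of 0.67 ± 0.11 (edgeR adjusted p = 0.00717). Clasp2, a microtubule plus-end protein, rose by 1.04, the heat shock transcription factor Hsf2 by 1.004, the hydrolase Abhd2 by 0.87, the RNA-binding protein Marf1 by 0.85, the inositol phosphatase Inpp4a by 0.80, the dynactin subunit Dctn4 by 0.76, Pam, which amidates peptides, by 0.70, and the chromatin protein Cbx3 by 0.69 on the log2 scale. Their edgeR adjusted p values lay between 0.00717 and 0.0487.

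Gm26737 had 20.7 and 24.8 CPM in supplemented mice and 4.9 and 9.5 in wild type mice (log2 fold change 1.69, edgeR adjusted p = 0.0487). Gm26737 and Fxyd7 had an average log2 CPM under 4 and were named after their values were seen. Cartpt, a neuropeptide precursor, fell, at 15.5 and 19.2 CPM in supplemented mice against 62.2 and 24.0 in wild type mice, and 78 of its 139 UMIs in mouse 698 lay in 1 cell. Fxyd7, a regulator of the sodium pump, fell, with 45 of its 57 UMIs in mouse 698 in 1 cell. Without the highest cell of each mouse the edgeR adjusted p was 0.487 for Cartpt and 0.834 for Fxyd7. The Cartpt call ended in 12 of 17 alternatives, with an adjusted p of 0.214 by limma-voom.

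These calls depended on mouse 671. Without it 2 genes passed in supplemented against wild type mice, 9 without mouse 670 and 39 without mouse 699. Without mouse 671, Actb had an edgeR adjusted p of 0.0539, Gnb1 of 0.205, Marf1 of 0.226, Abhd2, Dctn4 and Inpp4a of 0.258, Clasp2 of 0.303, Hsf2 and Cbx3 of 0.365 and Pam of 0.753.

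Both Ttpa-/- diets against wild type, which share their wild type mice with the contrasts above, gave 10 genes called (0.109% of those tested) by edgeR's test, of which 8 rose (0.0873%) and 2 fell (0.0218%). Gnb1 averaged 1932 ± 153 CPM in Ttpa-/- mice (SD, n = 4) and 1229 ± 109 in wild type mice (n = 2), a log2 fold change of 0.63 ± 0.10 (SE, edgeR adjusted p = 0.0032). Actb averaged 6361 ± 870 CPM and 4175 ± 371 CPM (log2 fold change 0.58, edgeR adjusted p = 0.0032). Both were higher in 4 of 4 Ttpa-/- mice than in any wild type mouse, where groups did not overlap for 12.7% of the genes tested, and held in each of 18 alternatives. Wdfy1 rose by 1.51 on the log2 scale (edgeR adjusted p = 0.0032), and adjusted p was above 0.05 at 5 or more UMIs (0.112) and with DESeq2 (0.0518). Marf1, Inpp4a, Cbx3, Hsf2 and Rpgrip1, a ciliary protein, rose by 0.58 to 0.93, with edgeR adjusted p between 0.0109 and 0.0482. Cpne3 fell to 447 ± 7.44 CPM in deficient and 471 ± 23.0 in supplemented mice, against 652 ± 62.5 in wild type mice (log2 fold change -0.53, edgeR adjusted p = 0.0255), and its edgeR adjusted p was 0.326 without mouse 698, 0.0826 without mouse 654, 0.0549 without mouse 657 and 0.0974 without mouse 670. Without mouse 654 the edgeR adjusted p was also above 0.05 for Marf1 (0.0826), Inpp4a (0.241), Cbx3 (0.316), Hsf2 (0.0826) and Rpgrip1 (0.258). Fxyd7 was the other gene that fell, and its edgeR adjusted p was 0.998 without the highest cell of each mouse.

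Gnb1 also stood higher within subsets. In subset 1 it had 1721 and 1488 CPM in deficient mice, 1841 and 1789 in supplemented mice, and 1316 and 969 in wild type mice. In subset 2 it had 2793 and 2420, 2142 and 2559, and 1257 and 1699 CPM in the same groups. Actb in subset 1 had 5292 and 4983, 6664 and 6666, and 4639 and 3745 CPM in those groups. In subset 1 every Ttpa-/- mouse was above both wild type mice for both genes. In subset 3 Actb had 4173 and 6810, 5738 and 8363, and 4632 and 3549 CPM in those groups, which overlapped. Both genes were picked because they were called in the sums of these same cells, so their subset values are no separate evidence. How many of all genes do not overlap within a subset was not counted. The other cells of the same mice also had more Gnb1, at 1965 and 2059 CPM in deficient mice, 1715 and 1959 in supplemented mice, and 1483 and 1376 in wild type mice. Wdfy1 in the other cells had 38.1 and 72.5, 39.8 and 50.8, and 16.3 and 14.8 CPM in those groups, and Actb had 7044 and 6884, 6343 and 8262, and 5236 and 4290 CPM.

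**Figure D5:**
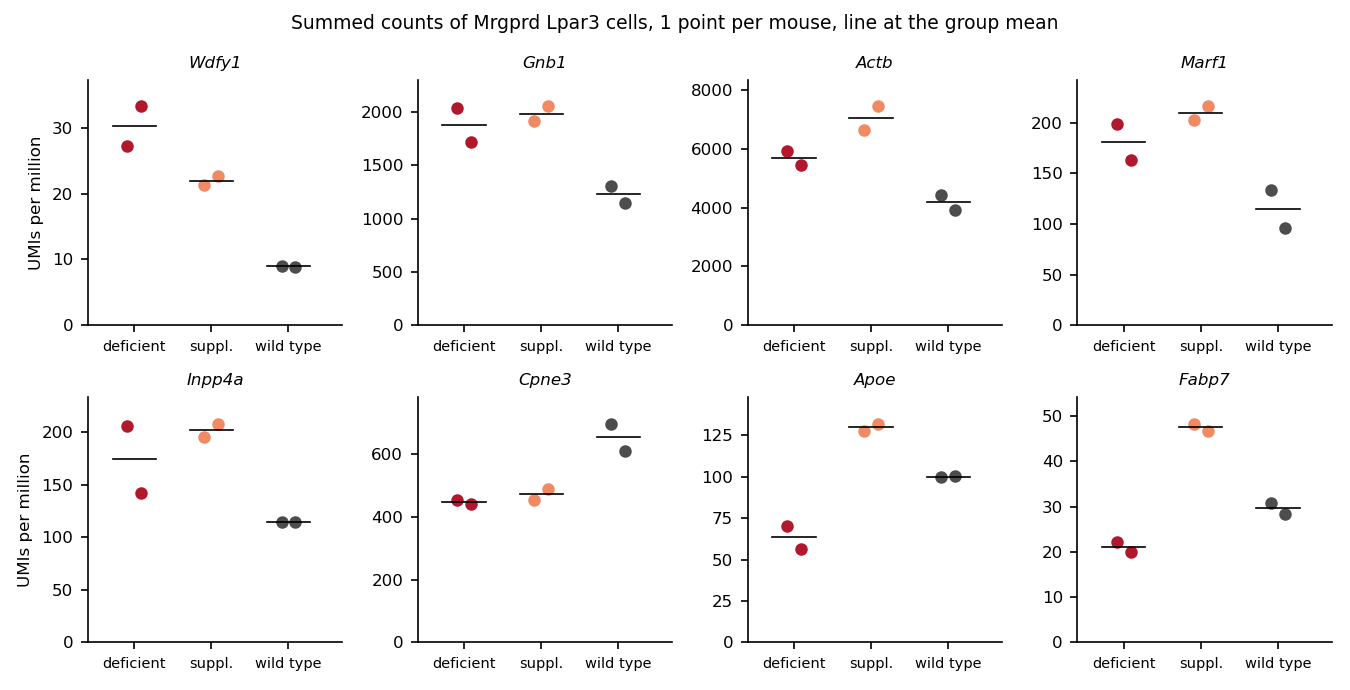
Levels of 8 genes in the summed counts of Mrgprd Lpar3 cells (CPM), with 1 point per mouse and a line at the group mean for deficient, supplemented and wild type mice. Wdfy1, Gnb1 and Actb are higher in all Ttpa-/- mice than in wild type mice, Cpne3 is lower, and Apoe and Fabp7 are lower in deficient than in supplemented mice.

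Between the Ttpa-/- diets, deficient against supplemented, 0 genes rose (0.00% of those tested) and 2 fell (0.0218%) by edgeR's test. Of all genes tested, 464 (5.06%) had an unadjusted p under 0.05, DESeq2 called 0 higher and 1 lower, and limma-voom 0 higher and 2 lower. Apoe, the lipid carrier made by satellite glia and macrophages (chromosome 7, 19696109 to 19699188), had 70.5 and 56.1 CPM in deficient mice and 128 and 132 in supplemented mice, a log2 fold change of -1.06 ± 0.14 (SE, edgeR adjusted p = 0.000444). Fabp7, a fatty acid-binding protein of satellite glia, had 22.2 and 20.05 CPM in deficient mice and 48.3 and 46.6 in supplemented mice (log2 fold change -1.18, edgeR adjusted p = 0.00376). The groups did not overlap for either gene, as for 35.3% of the genes tested. Wild type mice had 99.8 and 100.3 CPM of Apoe.

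Apoe and Fabp7 both belong to the 9 marker genes of satellite glia. The 7 others summed to 117 and 99.9 CPM in the Mrgprd Lpar3 cells of deficient mice, 154 and 119 in supplemented mice, and 115 and 89.2 in wild type mice, and to 256 and 197, 291 and 277, and 232 and 199 CPM in the other cells of the same groups. With Apoe and Fabp7, the 9 genes summed to 210 and 176 CPM in the Mrgprd Lpar3 cells of deficient mice, 330 and 297 in supplemented mice, and 246 and 218 in wild type mice. In the other cells they summed to 634 and 526, 784 and 1036, and 643 and 479 CPM, with Apoe at 275 and 231 CPM in deficient and 366 and 536 in supplemented mice. The part of glial transcripts in the result was not tested, and fewer glial cells and less RNA per glial cell cannot be told apart. Without mouse 657 the edgeR adjusted p was 0.0597 for Apoe and 0.149 for Fabp7, without mouse 671 it was 0.0633 for Fabp7, and with cells of 5 or more UMIs it was 1 for both. For Fabp7 the edgeR adjusted p was also 0.163 at 2 or more UMIs and 0.995 in cells with UMIs of both rule genes, and DESeq2 gave 0.209.

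Gene lists were described by their counts beside all genes tested, of which 3.78% had an unadjusted p under 0.05 in deficient against wild type mice. The mitochondrially encoded genes summed to 16102 and 22982 CPM in deficient mice, 16278 and 20645 in supplemented mice, and 26744 and 21478 in wild type mice. In the other cells of the same groups they summed to 27366 and 37230, 26210.5 and 33022, and 43229 and 35209 CPM. Mouse 698 was thus highest in both cell sets. Of the 13, 0 passed edgeR's test in deficient against wild type mice (8 with an unadjusted p under 0.05; 0 by DESeq2 and 0 by limma-voom), though 13 had a lower fitted level, with a median log2 fold change of -0.36 against 0.00 over all genes tested. Of the 34 antioxidant genes tested, 0 passed in that contrast (1 with an unadjusted p under 0.05; 0 by DESeq2 and by limma-voom), with a median of 0.03. Of 14 vitamin E and lipid transport genes, 0 passed against wild type in deficient mice (1 with an unadjusted p under 0.05; 0 by DESeq2 and by limma-voom), with a median of -0.12, and Apoe was the 1 that fell between the diets. Of 14 immediate early genes 0 passed (2 with an unadjusted p under 0.05; 0 by DESeq2 and by limma-voom), with a median of 0.01. The other pathway lists had 0 genes called in deficient against wild type mice by edgeR, DESeq2 and limma-voom, with 0 to 3 genes each at an unadjusted p under 0.05. In supplemented against wild type mice, Pam and Cartpt were the 2 of 15 tested genes of the neuropeptide list called by edgeR, where 0.153% of all genes tested were. The Pam call ended in 9 of 18 alternatives and the Cartpt call in 12 of 17. Of the marker lists, the 3 erythroid genes tested had a median log2 fold change of 4.08 in deficient against wild type mice, with 1 called, Hbb-bs, by edgeR. The 5 satellite glial genes tested all had a positive fold change in supplemented against wild type mice, with a median of 0.66 and 0 called by edgeR, DESeq2 or limma-voom (3 with an unadjusted p under 0.05, as for 5.94% of all genes tested).

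To ask whether a group difference was unlike between the Mrgprd Lpar3 cells and the other cells of the same mice, 12453 genes were tested. The fit had mouse as a block and the cell set by group term. Higher and lower here refer to the change in the Mrgprd Lpar3 cells minus that in the other cells. A call can therefore come from a change in either cell set. In deficient against wild type mice 2 genes were called by edgeR (0.0161%), with 1 higher, Hbb-bs, and 1 lower, Gal (0.00803% each), and in supplemented against wild type mice 1 was lower (0.00803%), Gal. In deficient against supplemented mice 4 globin genes were higher (0.0321%). In both Ttpa-/- diets against wild type 7 were lower (0.0562%), Gal, Ly86, Prkcq, Serping1, Hpcal1, Nupr1 and Lpar3, of which Lpar3 was used by the rule and is given without a reading. Prkcq had 70.5, 56.4, 66.2 and 57.7 CPM in the Mrgprd Lpar3 cells of Ttpa-/- mice and 75.2 and 61.3 in those of wild type mice. In the other cells it had 12.9, 3.7, 12.5 and 4.6 CPM in Ttpa-/- mice and 3.9 and 2.0 in wild type mice, highest in the 2 shallowest libraries, 654 and 670. The contrasts share their mice. The other cells can hold cells of the class that the rule missed, and their part in these calls was not tested beyond the alternative that follows. Other cells with no UMI of Mrgprd or Lpar3 were 3217 of 3581 in mouse 654 and 2398 of 2504 in mouse 657. They were 3265 of 3631 in mouse 670, 3168 of 3391 in mouse 671, 2959 of 3100 in mouse 698 and 3037 of 3158 in mouse 699. The difference of log2 fold changes for Prkcq was -1.51 (edgeR adjusted p = 0.0285), and -1.46 (edgeR adjusted p = 0.0314) with other cells that had no UMI of Mrgprd or Lpar3, an alternative added after results were seen. The edgeR adjusted p for Prkcq was 0.354 without mouse 654, 1 without mouse 670 and 0.0765 without mouse 699. Ly86 had 645, 551, 483 and 551 CPM in the Mrgprd Lpar3 cells of Ttpa-/- mice and 880 and 665 in those of wild type mice, against 159, 76.1, 125 and 77.5 CPM in the other cells of Ttpa-/- mice and 102 and 59.2 in those of wild type mice. Its difference was -0.86 (edgeR adjusted p = 0.0112), with an adjusted p of 0.0519 without mouse 654, 1 without mouse 670 and 0.0536 without mouse 699.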

How the data were processed

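The authors deposited raw UMI counts for 27998 genes in 21685 cells. Per the submitters' processing notes, bcl2fastq 2.17.1.14, Cell Ranger 2.0.1, mm10, Seurat 2.3.0 and limma 3.32.10 were used, with roles and cell selection not given in the sources used here. Cells were mapped to mice by the suffix of their names. A filter of at least 500 detected genes and no more than 20% of UMIs from mitochondria removed 27 cells. Doublets were scored with scrublet in scanpy 1.11.5; its automatic threshold marked 45 cells (0.208%), so the expected rate of 0.8% per 1000 cells was used, and 634 cells (2.93%) were removed. The members and gene lists were chosen with earlier results of these data known.

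UMI counts were summed per mouse. edgeR 4.0.16 (TMM, filterByExpr, 1 mean per group, quasi-likelihood test, Benjamini-Hochberg, threshold 0.05) was run on all 6 mice, with the cell set by group interaction against the other cells. The biological coefficient of variation was 9.56%. Each mouse is 1 replicate, with 2 mice per group. The spread behind edgeR's p-values was estimated from all 3 groups together and drawn towards that of other genes, so it is not the spread of the compared mice alone. DESeq2 1.42.0 and limma 3.58.1 were alternatives. CPM are UMI counts divided by the summed counts and multiplied by 1000000. Genes were named by rule: up to 10 per direction that passed the threshold, had a mean log2 CPM of at least 4 and had groups that do not overlap, or where fewer than 5 passed the 5 of smallest p, and for the comparison with other cells the 20 highest ratios at 50 CPM or more and the 10 lowest at 200 CPM or more in the other cells. Other genes named were chosen after their values were seen. Subsets were found by Leiden clustering (resolution 0.3, 1000 variable genes, 15 components), leaving out genes with an unadjusted p under 0.01 between groups. Positions are GENCODE vM21 on GRCm38, the assembly of mm10. On simulated data for deficient against wild type mice over 8969 genes, edgeR recovered 15, 44, 50 and 50 of 50 genes changed by 1.5, 2, 4 and 8 times, with 3 false calls. The simulation gave every gene the same spread and changed only genes with a mean log2 CPM of at least 4. It therefore does not cover genes of larger spread or calls that rest on 1 cell. Some genes are not reported here.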

Additional observations from a re-analysis of the deposited data

Results flagged for a closer look

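These differences between the Mrgprd Lpar3 cells and the other cells of the same mice passed edgeR's interaction test, which is what marked them. In deficient against wild type mice, Hbb-bs differed by 2.61 on the log2 scale and Gal, a neuropeptide gene, by -4.83. In supplemented against wild type mice Gal differed by -4.16, and in both Ttpa-/- diets against wild type by -4.49. Gal had 44.8 CPM in mouse 698 and at most 1.28 CPM in the Mrgprd Lpar3 cells of the other mice. In deficient against supplemented mice the globin genes Hbb-bt (6.14), Hbb-bs (3.35), Hba-a1 (2.87) and Hba-a2 (2.98) differed. In both Ttpa-/- diets against wild type, Prkcq differed by -1.51, Serping1 by -0.80, Nupr1 by -1.60, Ly86 by -0.86 and Hpcal1 by -2.10. Each of these calls ended when 1 or another of the mice was left out. For Serping1 the edgeR adjusted p was 0.588 without mouse 654, 1 without 670, 0.304 without 671 and 0.763 without 699, and 0.382 with other cells that had no UMI of Mrgprd or Lpar3. For Nupr1 it was 0.579, 1, 0.166 and 0.402 without the same mice, 0.382 with those other cells, and 0.0805 without its highest cell in each mouse. For Hpcal1 it was 1 without mouse 670, 0.304 without 671, 1 without 698, and 1 at 2 or more UMIs of Mrgprd and Lpar3. Of the 15 alternatives, 7 ended the call for Serping1, 9 for Nupr1, 7 for Hpcal1, 4 for Prkcq and 3 for Ly86. Prkcq had an edgeR adjusted p of 0.354 without mouse 654, 1 without 670 and 0.0765 without 699, and Ly86 had 0.0519, 1 and 0.0536 without those mice. The Hbb-bs call in deficient against wild type mice ended in 6 of 15, with an edgeR adjusted p of 1 without mouse 654, 0.533 without 670, 0.493 without 671, 0.153 without 699 and 1 without its highest cell. In deficient against supplemented mice, the edgeR adjusted p without mouse 654 and without mouse 670 was 1 for Hba-a1, Hba-a2 and Hbb-bt; without mouse 671 it was 0.097, 1 and 0.193 for the same genes. For Hbb-bs it was 0.846 without mouse 670. Without the highest cell it was 0.0512 for Hbb-bs and 0.0622 for Hba-a2 and Hbb-bt. Without the highest cell of each gene in each mouse, Gal had an edgeR adjusted p of 1 in each of its contrasts, as it had without mouse 698. Nupr1 in the other cells had 6.45, 2.28, 8.28 and 3.62 CPM in Ttpa-/- mice and 1.97 and 1.30 CPM in wild type mice, with the highest values in mice 654 and 670.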

How the results depend on the processing

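With 2 mice per group, counts of called genes moved with most choices, and the causes were not tested. Genes called in deficient against wild type mice (2 as reported) numbered 24 with no filter on low counts, 4 with sex as a term, 13 with doublets kept, 4 at 2 or more UMIs, 13 with all cells of the table, 5 with sums thinned to the smallest, 1 without the highest cell of each gene, and 1 to 14 with a mouse left out. In supplemented against wild type mice (14) they numbered 54 with no filter, 31 at 2 or more UMIs, 5 at 5 or more, and 2 to 39 with a mouse left out. In deficient against supplemented mice (2) they numbered 22 with no filter, 1 with DESeq2, 1 at 2 or more UMIs, 1 at 5 or more, 1 in cells with both genes, and 2 to 11 with a mouse left out. In both Ttpa-/- diets against wild type (10) they numbered 41 with no filter, 4 with DESeq2, 6 with limma-voom, 17 with sex as a term, 18 with doublets kept, 20 at 2 or more UMIs, 2 at 5 or more, 18 with all cells, and 5 to 29 with a mouse left out.

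Differences from the other cells in deficient against wild type mice (2) numbered 12 with no filter, 13 with doublets kept, 8 at 5 or more UMIs, 7 thinned, 1 with stricter other cells, 5 with other cells lacking Mrgprd and Lpar3 UMIs, 0 without the highest cell, and 0 to 20 with a mouse left out. In supplemented against wild type mice (1) they numbered 4 with RLE size factors, 19 with no filter, 10 with doublets kept, 3 at 2 or more UMIs, 10 at 5 or more, 9 thinned, 0 with stricter other cells, 3 with other cells lacking both, 0 without the highest cell, and 0 to 23 with a mouse left out. In deficient against supplemented mice (4) they numbered 1 without the highest cell and 0 to 5 with a mouse left out. In both Ttpa-/- diets against wild type (7) they numbered 17 with no filter, 14 with doublets kept, 3 at 2 or more UMIs, 12 thinned, 2 with stricter other cells, 4 without the highest cell, and 0 to 25 with a mouse left out.

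The share difference turned to -0.461 points in supplemented against wild type mice at 5 or more UMIs, and to -0.272 points in deficient against supplemented mice with thinned cells. With a mouse left out it was 2.89 to 4.38 points in deficient and 0.687 to 2.17 in supplemented against wild type mice, 1.72 to 2.69 between the diets, and 1.79 to 3.28 in both diets against wild type. Apoe turned to 0.078 in deficient against wild type mice in cells with both genes. The difference from other cells turned to 0.15 for Gal in supplemented against wild type mice without mouse 698 (lowest -5.00, without mouse 699). For Fxyd7 in both diets it turned to 0.0080 without mouse 698 (lowest -2.82, without mouse 699) and 0.15 at 5 or more UMIs. Without the highest cell, stricter other cells, and other cells lacking both genes were chosen after seeing the data. Mice were not paired by replicate number, because these numbers only name the mice and pair none across groups. Each group had 1 female and 1 male mouse, and the counts with sex as a term are the fit that sets mice of the same sex together.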
